A study of Mus musculus with 8 samples.

Results

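The genes described here are 7 transcription factors of Kupffer cell identity: Nr1h3, Rxra, Spi1, Spic, Maf, Zeb2 and Id3. They were taken by symbol, for their published roles, out of 21968 named genes, with earlier results of these data known. All 7 were found and passed the filter on low counts. Their RNA was followed across 4 groups of cells sorted from livers of Lgr5-LacZ transgenic mice of a mixed C57BL/6 and CBA background: F4/80high cells with β-galactosidase activity (b-gal+) and without it (b-gal-), cells positive for EpCAM, an epithelial adhesion molecule, and hepatocytes. Every mouse, in all groups, had received 1 µl/g CCl4, a liver toxin, in rapeseed oil 6 days earlier by 1 injection into the peritoneum. There was no uninjured group and no group without the transgene. The mice were 10 to 12 weeks old by the sample labels, and 7 to 12 by the design text. Each group had 2 libraries, and each library pooled cells of 2 mice, so a p-value measures the spread between such pools. The sort used a fluorogenic substrate of β-galactosidase and an antibody to F4/80, a macrophage antigen. The title of the series calls the β-galactosidase activity endogenous, so b-gal+ cells are named here by that activity and not as cells that express Lgr5.

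Kupffer cells are the resident macrophages of the liver sinusoids, where they clear particles, senescent red cells and lipoproteins. A myeloid programme set by PU.1 (Spi1) is shared by all macrophages. On top of it, signals from the neighbouring endothelium, stellate cells and hepatocytes, among them Notch ligands and TGF-β family members, are reported to induce LXRα (Nr1h3), SpiC (Spic) and Id3 in mouse. LXRα binds DNA as a heterodimer with RXRα (Rxra) and regulates genes of cholesterol export. SpiC is linked to the recycling of haem iron. c-Maf (Maf) and ZEB2 restrain or maintain macrophage states, and Id3 blocks the DNA binding of E proteins.

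The libraries held 16948568 to 24549242 recovered reads, with 14432 to 16130 genes detected, and 3 reads stood for 0.122 to 0.177 counts per 1000000 reads (CPM) before scaling. Across genes, which are not independent replicates, the 2 EpCAM-positive libraries correlated least (Spearman's rho 0.926). The labels were set against marker lists by summing CPM in each library. The 11 Kupffer cell markers summed to 29197 and 34137 CPM in b-gal+ libraries, 3603 and 3958 in b-gal- libraries, 655 and 1369 in EpCAM-positive libraries and 668 and 775 in hepatocytes. Adgre1, which encodes F4/80, had 1731 and 1361 CPM in b-gal+ libraries and 311 and 134 CPM in b-gal- libraries. The 15 markers of liver sinusoidal endothelium summed to 3445 and 4635 CPM in b-gal+ libraries, 24267 and 28344 in b-gal- libraries, 8868 and 10378 in EpCAM-positive libraries and 554 and 1288 in hepatocytes. The b-gal- F4/80high libraries thus carried more endothelial than macrophage marker RNA, the 12 macrophage markers summing there to 2847 and 6627 CPM. In EpCAM-positive cells the 10 cholangiocyte markers summed to 2086 and 6695 CPM, below the endothelial sum of the same libraries. All 7 factors are described with these sums in view, and the part of cell mixture in any difference was not tested.

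The 7 genes lie on 4 chromosomes of mouse build GRCm38 (GENCODE M21). Nr1h3 (chromosome 2, 91184061 to 91202834, minus strand), Spi1 (chromosome 2, 91082390 to 91115756, plus strand), Rxra (chromosome 2, 27676440 to 27762957, plus strand) and Zeb2 (chromosome 2, 44983632 to 45117395, minus strand) share a chromosome. Spic lies on chromosome 10 (88674772 to 88685015, minus strand), Id3 on chromosome 4 (136143497 to 136145755, plus strand) and Maf on chromosome 8 (115682942 to 115707794, minus strand). The 250 bases before the annotated starts, from RefSeq on GRCm38.p6, are shown for 1 start of each of the 5 genes found there. They set the sequences of these factors beside motifs of kinds that such factors bind, and beside an RBPJ site of Notch signalling. For Nr1h3 and Rxra the start whose window held a motif is shown. By the GENCODE coordinates above, the windows shown for Nr1h3, Rxra, Spic and Id3 lie within their genes. The Zeb2 window shown lies before its gene. Each runs 5′ to 3′ on the strand of its gene, and capitals mark a motif.
Nr1h3, first start, chr2:91195117-91195366, minus strand: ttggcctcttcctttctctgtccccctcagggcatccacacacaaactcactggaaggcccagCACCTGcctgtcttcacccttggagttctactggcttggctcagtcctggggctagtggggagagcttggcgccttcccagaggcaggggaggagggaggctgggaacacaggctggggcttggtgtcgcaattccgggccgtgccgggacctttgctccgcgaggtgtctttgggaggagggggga
Rxra, second start, chr2:27709042-27709291, plus strand: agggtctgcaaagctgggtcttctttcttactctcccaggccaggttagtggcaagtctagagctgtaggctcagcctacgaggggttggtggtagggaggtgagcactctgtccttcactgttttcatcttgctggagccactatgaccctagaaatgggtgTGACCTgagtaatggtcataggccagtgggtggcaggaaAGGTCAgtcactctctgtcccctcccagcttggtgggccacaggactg
Spic, chr10:88683024-88683273, minus strand: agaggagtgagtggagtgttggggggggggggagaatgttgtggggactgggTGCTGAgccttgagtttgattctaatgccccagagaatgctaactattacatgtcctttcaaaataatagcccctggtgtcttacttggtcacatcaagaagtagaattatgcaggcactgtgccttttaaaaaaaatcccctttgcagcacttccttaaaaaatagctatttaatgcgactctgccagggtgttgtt
Zeb2, first start, chr2:45117443-45117692, minus strand: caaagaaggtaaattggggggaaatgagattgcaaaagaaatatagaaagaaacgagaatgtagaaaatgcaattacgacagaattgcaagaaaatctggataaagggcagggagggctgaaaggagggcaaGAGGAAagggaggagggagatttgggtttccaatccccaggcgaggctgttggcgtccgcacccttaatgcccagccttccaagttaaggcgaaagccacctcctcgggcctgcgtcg
Id3, chr4:136143572-136143821, plus strand: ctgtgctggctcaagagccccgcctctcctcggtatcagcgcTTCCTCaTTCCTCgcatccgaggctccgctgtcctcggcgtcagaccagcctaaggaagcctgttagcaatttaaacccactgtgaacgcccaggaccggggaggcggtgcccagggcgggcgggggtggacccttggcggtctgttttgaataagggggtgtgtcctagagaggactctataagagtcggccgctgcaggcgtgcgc

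The 5 motifs were searched on both strands of 10 such windows of the 5 genes, and none overlapped another hit. GAGGAA, the core of a PU.1 type ETS site, occurred in all 4 Zeb2 windows, 1 of them shown with the hit 118 bases before the start. The windows of the second and the third Zeb2 start overlap, so their hit is the same site. Id3 held it on the opposite strand 208 and 201 bases before the start, and the windows of Nr1h3, Spic and Rxra did not hold these letters. AGGTCA, the half-site of nuclear receptors such as LXR and RXR, occurred before the second Rxra start at 48 bases, and on the opposite strand at 87 bases. CACCTG, an E2 box of the kind ZEB2 binds, stood 187 bases before the first Nr1h3 start, and TGCTGA, a Maf half-site, 198 bases before the Spic start. GTGGGAA, an RBPJ site of Notch signalling, was in no window. The windows of the second Nr1h3 start and the first Rxra start held none of the 5 motifs. Among 32851 windows of the same length, 23.25% held GAGGAA, 14.02% AGGTCA, 17.22% CACCTG, 16.08% TGCTGA and 5.42% GTGGGAA. Each match describes the letters of a window and is not evidence of binding.

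Of the 7 factors, 5 were higher in b-gal+ than in b-gal- F4/80high cells: Spic 12.8-fold, Nr1h3 9.99-fold, Spi1 5.20-fold, Rxra 3.38-fold and Id3 1.46-fold. Zeb2 and Maf missed the threshold of adjusted p under 0.05, with Zeb2 above and Maf below its b-gal- level. A call in the higher direction was given to 10.3% of the 14404 genes tested and one in the lower direction to 13%, that is 1490 and 1867 genes, or 1164 and 2252 without TMM scaling. The libraries of both groups did not overlap for any of the 7 factors, nor for 69% of all genes. The median log2 difference of the 7 was 1.76, against -0.02 over all genes. In sorted bulk RNA, fewer cells of a type and less RNA per cell cannot be told apart.

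**Figure D1:**
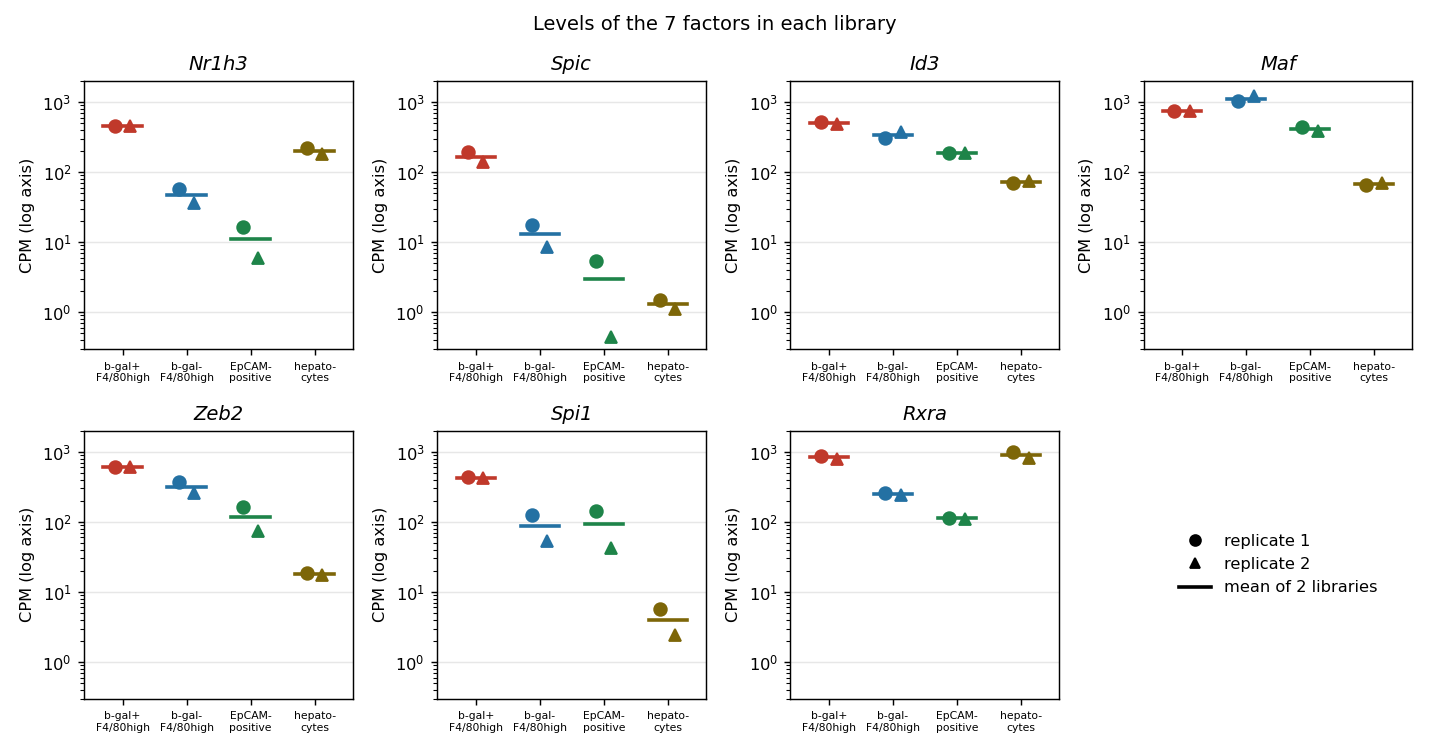
Level of each factor in CPM (TMM-scaled, log axis) in the 2 libraries of each sorted group, with circles for replicate 1, triangles for replicate 2 and a bar at their mean. Nr1h3, Spic, Spi1, Zeb2 and Id3 were highest in b-gal+ cells and Maf in b-gal- cells. Rxra averaged 841 CPM in b-gal+ cells and 903 CPM in hepatocytes.

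Nr1h3, the oxysterol receptor LXRα, had 460 and 457 CPM in b-gal+ libraries, 57.0 and 36.2 in b-gal- libraries, 16.3 and 5.91 in EpCAM-positive libraries and 223 and 181 in hepatocytes. The order of groups was b-gal+, hepatocytes, b-gal-, EpCAM-positive, and no libraries of neighbouring groups overlapped. Over all genes tested the libraries did not overlap for 66% in b-gal+ and 55.7% in b-gal- against EpCAM-positive cells, and for 82.4%, 86.2% and 80.8% in b-gal+, b-gal- and EpCAM-positive cells against hepatocytes. The means were 458 ± 1.90, 46.6 ± 14.7, 11.1 ± 7.36 and 202 ± 29.7 CPM in b-gal+, b-gal-, EpCAM-positive cells and hepatocytes (SD, n = 2 each). In b-gal+ over b-gal- cells Nr1h3 differed by 3.32 on the log2 scale (95% interval 2.28 to 4.37, adjusted p = 0.00291). The call held when any 1 of the 8 libraries was left out. Against hepatocytes, which use LXRα to control bile acid and fatty acid genes, b-gal+ cells differed by 1.19 (0.14 to 2.23), with adjusted p = 0.0525. That comparison passed without either EpCAM-positive library (adjusted p = 0.00745 and 0.00616), with DESeq2 (0.0304), with a pseudocount of 2 (0.0416) and with the 4 libraries alone (0.00194). Without TMM scaling the difference was 2.17 (adjusted p = 0.00321), and on the deposited scale it was 2.23 (0.00351). The b-gal- cells were lower than hepatocytes by -2.13 (adjusted p = 0.0047), a call lost without TMM scaling (-0.99, adjusted p = 0.0706).

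Rxra encodes RXRα, the shared partner of LXR, PPAR and other receptors. It had 885 and 797 CPM in b-gal+ libraries, 254 and 242 in b-gal- libraries, 114 and 111 in EpCAM-positive libraries and 981 and 825 in hepatocytes. The b-gal+ and hepatocyte libraries overlapped, and both lay far above the other 2 groups. Rxra differed by 1.76 in b-gal+ over b-gal- cells (1.33 to 2.19, adjusted p = 0.00137), a call that held when any 1 library was left out. The difference of b-gal+ cells from hepatocytes was -0.10 (-0.53 to 0.33, adjusted p = 0.671), and it turned to 0.89 (adjusted p = 0.00395) without TMM scaling, which moved the median of all genes by 0.73. Per length of exons, the ratio of Nr1h3 to Rxra reads was 1.13 and 1.24 in b-gal+ libraries, 0.486 and 0.324 in b-gal- libraries, 0.310 and 0.115 in EpCAM-positive libraries and 0.494 and 0.476 in hepatocytes. Length here and below is that of all annotated exons of a gene, not of the transcript expressed. Where such a ratio stands against 1 therefore depends on the annotation. The ratio was above 1 in both b-gal+ libraries and below 1 in the other 6, and 2 libraries against 2 allow no permutation p below 0.333.

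Spi1, the PU.1 gene, had 432 and 420 CPM in b-gal+ libraries, 124 and 53.7 in b-gal- libraries, 142 and 42.5 in EpCAM-positive libraries and 5.61 and 2.40 in hepatocytes. The b-gal- and EpCAM-positive libraries overlapped and were spread widely within each group, replicate 1 being the higher in both. The means were 426 ± 8.56, 88.7 ± 49.4, 92.3 ± 70.5 and 4.00 ± 2.27 CPM in the same order. Between b-gal+ and b-gal- cells the log2 difference of Spi1 was 2.38 (0.83 to 3.93, adjusted p = 0.0402). Leaving out b-gal+ replicate 1 or 2 (adjusted p = 0.151 and 0.152), b-gal- replicate 2 (0.228) or either hepatocyte library (0.0643 and 0.0656) ended the call, as did edgeR (0.061), and without b-gal- replicate 1 the difference was 2.98. The b-gal- cells differed from EpCAM-positive cells by 0.07 (adjusted p = 0.969).

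Spic, an ETS factor related to PU.1, had 191 and 139 CPM in b-gal+ libraries, 17.6 and 8.61 in b-gal- libraries, 5.44 and 0.45 in EpCAM-positive libraries and 1.48 and 1.12 in hepatocytes. The b-gal+ libraries stood far above all others, while EpCAM-positive replicate 2, with 12 reads, lay below both hepatocyte libraries with 20 and 14 reads. The means were 165 ± 36.8, 13.1 ± 6.35, 2.94 ± 3.53 and 1.297 ± 0.25 CPM in the same order. Spic had a log2 difference of b-gal+ over b-gal- cells of 3.67 (1.76 to 5.59, adjusted p = 0.0186). It lost the call without b-gal+ replicate 1 or 2 (0.102 and 0.0799), b-gal- replicate 2 (0.121) or hepatocyte replicate 2 (0.051), with values of 3.18 to 3.94. Per length, the ratio of Spic to Spi1 reads was 0.311 and 0.233 in b-gal+ libraries, 0.0999 and 0.112 in b-gal- libraries and 0.027 and 0.007 in EpCAM-positive libraries. In hepatocytes the ratio of 0.185 and 0.327 rested on the few reads of Spic given above.

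Maf, a large Maf factor that restrains macrophage self-renewal in mouse, had 745 and 736 CPM in b-gal+ libraries, 1042 and 1203 in b-gal- libraries, 443 and 384 in EpCAM-positive libraries and 64.7 and 69.6 in hepatocytes. It was the only one of the 7 with its highest level in b-gal- cells, and its groups did not overlap. Maf had a log2 difference of b-gal+ over b-gal- cells of -0.60 (-1.03 to -0.16, adjusted p = 0.0578). It passed with DESeq2 (adjusted p = 0.0121), without TMM scaling (0.0223) and without EpCAM-positive replicate 1 or 2 (0.0401 and 0.0425). Relative to the geometric mean of the 15 endothelial markers of the same library, Maf stood at 397% and 541% in b-gal+ libraries, 93.4% and 94.99% in b-gal- libraries, 91.2% and 93.7% in EpCAM-positive libraries and 222% and 121% in hepatocytes. The b-gal- and EpCAM-positive libraries lay within a few percent of each other on that scale. Libraries of these groups also overlapped on it for Zeb2, Spi1, Nr1h3 and Spic, with wider spreads, and did not for Id3 and Rxra. Maf shares 440 bases, 5.34% of its exons, with an antisense RNA, Gm15655, and whether strand was used in counting is not given in the sources used here.

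Zeb2, a repressor that maintains the identity of tissue macrophages in mouse, had 605 and 612 CPM in b-gal+ libraries, 367 and 260 in b-gal- libraries, 162 and 75.3 in EpCAM-positive libraries and 18.8 and 17.3 in hepatocytes. Its level was lower in each next group of that order, with no overlap between libraries. For Zeb2 the log2 difference of b-gal+ over b-gal- cells was 0.98 (0.14 to 1.81), with adjusted p = 0.0937. It passed with DESeq2 (0.0317), with the 4 libraries alone (0.0323) and without EpCAM-positive replicate 1 or 2 (0.0153 and 0.0134). The antisense gene Zeb2os, which overlaps 3.27% of the Zeb2 exons, had 14.5 and 20.7 CPM in b-gal+ libraries and 6.45 and 4.99 CPM in b-gal- libraries (log2 difference 1.53, adjusted p = 0.0159). Whether reads of the shared stretch were assigned by strand is not given in the sources used here.

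Id3, an inhibitor of E proteins induced by BMP and TGF-β signals, had 512 and 481 CPM in b-gal+ libraries, 311 and 371 in b-gal- libraries, 186 and 185 in EpCAM-positive libraries and 70.5 and 75.0 in hepatocytes. The groups did not overlap, and Id3 spanned the smallest ratio between its highest and lowest group among the 7 factors. For Id3 the log2 difference of b-gal+ over b-gal- cells was 0.55 (0.18 to 0.91, adjusted p = 0.0437). That call was lost without either b-gal+ library (adjusted p = 0.185 and 0.132), either b-gal- library (0.24 and 0.108) or either hepatocyte library (0.0673 in both cases), with edgeR (0.0958) and without TMM scaling (0.39, adjusted p = 0.119).

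On a scale per length of all annotated exons, the factors ranked differently in each group. The place of one gene against another on that scale depends on the annotation, since the transcripts expressed were not determined. In b-gal+ cells Id3 averaged 277, Nr1h3 182, Spi1 158, Rxra 154, Maf 89.9, Spic 43.0 and Zeb2 30.5 CPM per kilobase. In b-gal- cells Id3 averaged 190, Maf 136, Rxra 45.5, Spi1 32.9, Nr1h3 18.5, Zeb2 15.7 and Spic 3.41. Id3 was first in both groups, whereas Nr1h3 was the second in b-gal+ cells and the fifth in b-gal- cells, and Maf the fifth and the second. In EpCAM-positive cells the values ran from 104 (Id3) to 0.77 (Spic), and in hepatocytes from 165 (Rxra) to 0.34 (Spic).

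**Figure D2:**
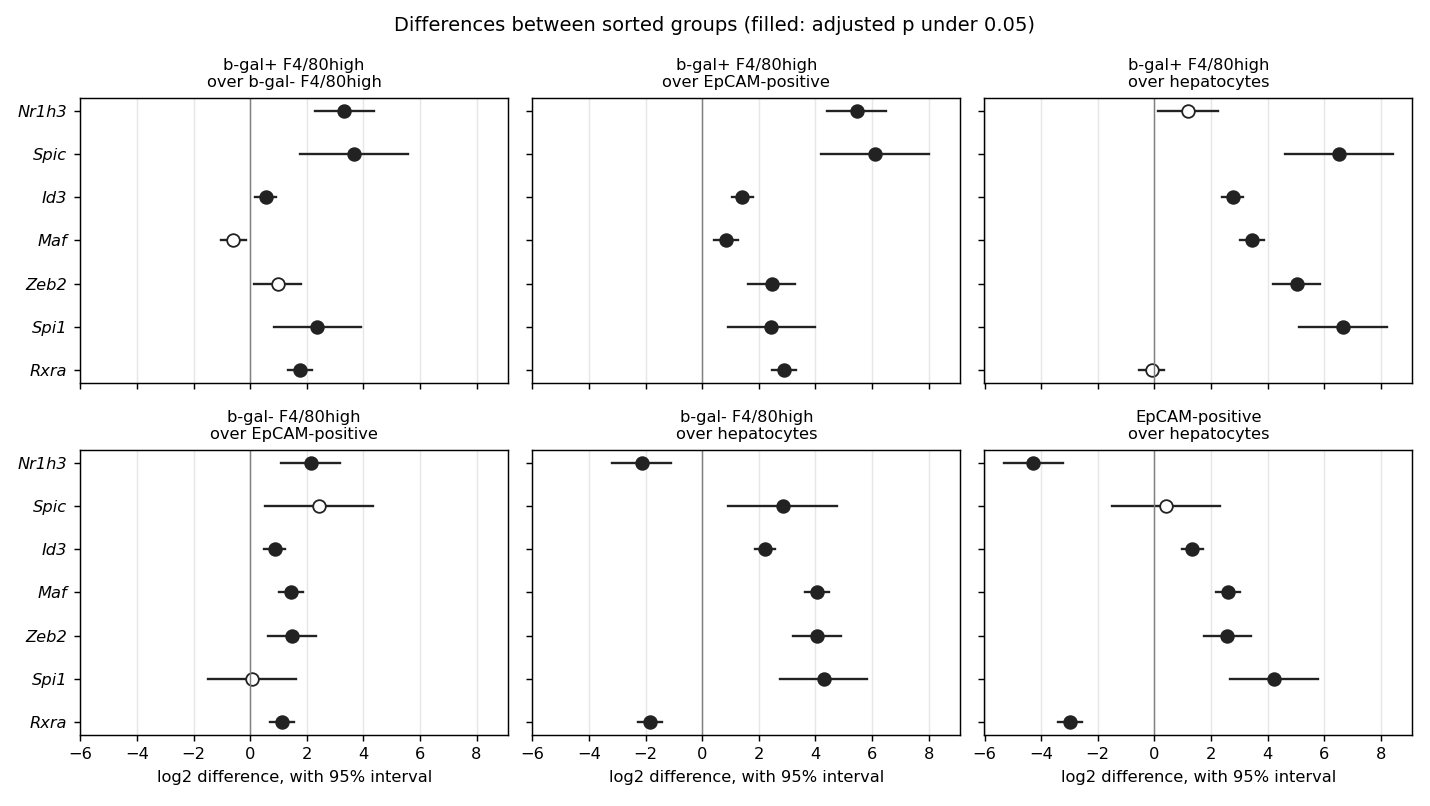
Log2 difference of each factor with its 95% interval in the 6 comparisons of sorted groups, filled where adjusted p was under 0.05. In b-gal+ over b-gal- cells the values run from -0.60 for Maf to 3.67 for Spic, and Rxra is at -0.10 in b-gal+ libraries over hepatocytes.

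Because the b-gal- libraries held less macrophage marker RNA, each factor was also set against the geometric mean of 12 macrophage markers in its own library. Nr1h3 stood at 43.8% and 42.4% of that level in b-gal+ cells, against 18.5% and 25.1% in b-gal- libraries. Spic stood at 18.2% and 12.9% in b-gal+ libraries and 5.71% and 5.98% in b-gal- libraries. These 2 factors were higher per macrophage marker in both b-gal+ libraries, whereas Spi1 was alike in the 4 libraries, at 41.1% and 39.0% in b-gal+ libraries and 40.1% and 37.3% in b-gal- libraries. Rxra stood at 84.2% and 74.1% in b-gal+ libraries and 82.6% and 168% in b-gal- libraries, which overlapped. Zeb2 stood at 57.6% and 56.9% in b-gal+ libraries and 119% and 180% in b-gal- libraries, and Id3 at 48.7% and 44.7% against 101% and 258%. Maf was furthest from macrophage RNA, at 71.0% and 68.4% in b-gal+ libraries and 338% and 836% in b-gal- libraries.

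In a fit of the 4 F4/80high libraries scaled to equal macrophage marker level, Nr1h3 differed by 1.00 (adjusted p = 0.148), Spic by 1.38 (0.0597), Spi1 by 0.05 (0.944) and Rxra by -0.58 (0.387). Id3, Zeb2 and Maf were lower in b-gal+ cells on that scale, by -1.79 (0.00837), -1.36 (0.0419) and -2.93 (2.55e-05). This scaling moved the median of all genes by -2.16, to -2.18, and gave 48 higher and 10746 lower calls among 13181 genes. Relative to that median all 7 but Maf lay higher, and the endothelial markers, with a median of -5.47, lay far lower.

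**Figure D3:**
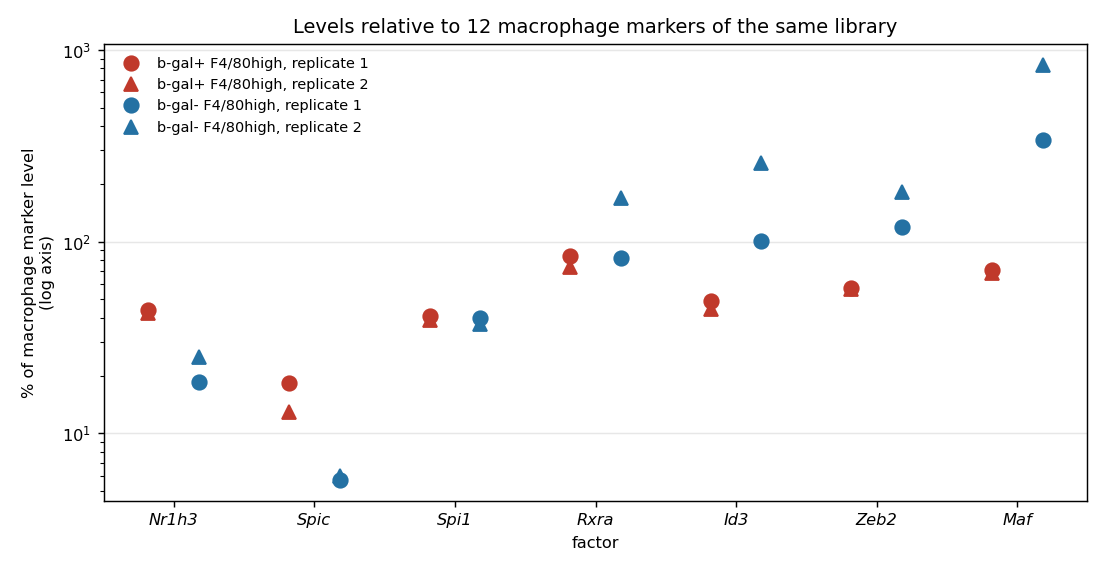
Level of each factor as a percentage of the geometric mean CPM of 12 macrophage markers in the same library (log axis), for the 2 b-gal+ and the 2 b-gal- F4/80high libraries. Nr1h3 and Spic are higher in both b-gal+ libraries, Spi1 lies between 37.3% and 41.1% in all 4, and Maf reaches 836% in a b-gal- library.

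Of 13 paralogues of the factors, 11 passed the filter and 6 were called in b-gal+ over b-gal- cells, 3 higher and 3 lower, with a median log2 difference of 0.35. Zeb1, the ZEB factor of mesenchymal and endothelial cells, had 31.0 and 24.3 CPM in b-gal+ libraries and 170 and 186 CPM in b-gal- libraries (-2.67, adjusted p = 0.000902). The ratio of Zeb2 to Zeb1 per length was 10.0 and 12.98 in b-gal+ libraries and 1.11 and 0.719 in b-gal- libraries.

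Within the Id family, Id1 (1.301, adjusted p = 0.0338) and Id2 (1.29, adjusted p = 0.00356) were higher in b-gal+ cells, as was the small Maf gene Mafk (0.99, adjusted p = 0.0281). Id4 had 9.12 and 9.77 CPM in b-gal+ libraries and 61.2 and 122 CPM in b-gal- libraries, and was lower (-3.13, adjusted p = 0.00222). Scaled to macrophage markers, Id1, Id2 and Mafk were at -1.02, -1.05 and -1.33, all above the median of -2.18 that this scaling gave over all genes. The second LXR gene, Nr1h2 (LXRβ), averaged 122 CPM in b-gal+ libraries and 95.6 CPM in b-gal- libraries, with 84.5 in EpCAM-positive libraries and 71.8 in hepatocytes. It did not pass in b-gal+ over b-gal- cells (0.35, adjusted p = 0.111), and the ratio of Nr1h3 to Nr1h2 per length was 5.46 and 4.60 in b-gal+ libraries against 0.807 and 0.496 in b-gal- libraries. Rxrb averaged 88.6 CPM in b-gal+ libraries and 66.4 CPM in b-gal- libraries (0.41, adjusted p = 0.118). Rxrg was low and lower in b-gal+ cells, at 0.67 and 0.28 CPM against 2.84 and 4.99 CPM in b-gal- libraries (-2.16, adjusted p = 0.00652).

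The remaining relatives did not pass. Spib, the PU.1 relative of B cells and plasmacytoid dendritic cells, averaged 1.22 CPM in b-gal+ libraries, 6.15 in b-gal- libraries, 26.8 in EpCAM-positive libraries and 0.32 in hepatocytes. The small Maf genes Maff (mean 39.2 CPM in b-gal+ libraries, 21.96 CPM in b-gal- libraries) and Mafg (40.3 CPM in b-gal+ libraries, 41.8 CPM in b-gal- libraries) overlapped between these groups. Mafa and Nrl, large Maf factors of β-cells and photoreceptors, had too few reads to be tested.

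**Figure D4:**
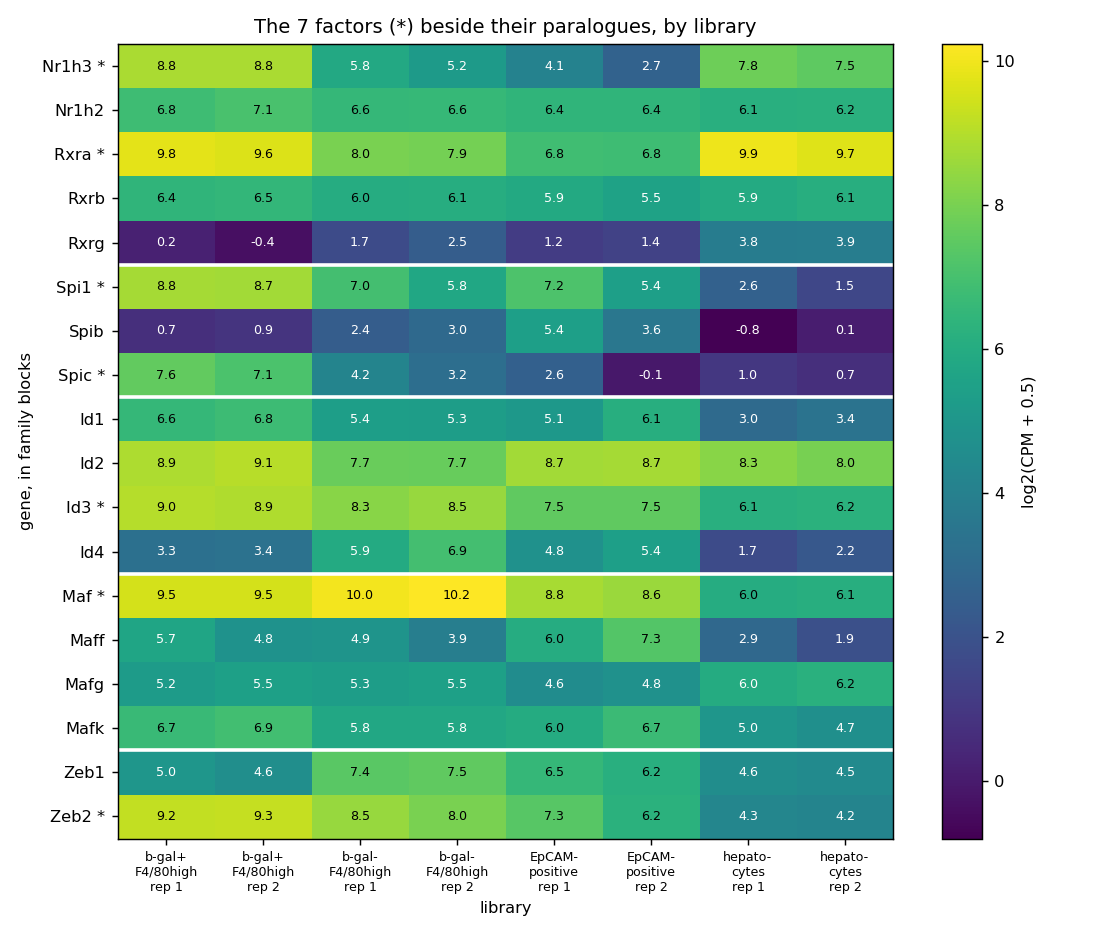
Log2(CPM + 0.5) of the 7 factors (marked with an asterisk) and their tested paralogues in each of the 8 libraries, in family blocks. Zeb1 and Id4 are brightest in b-gal- libraries, and Nr1h2 and Rxrb vary little.

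Of 18 target genes of LXR, 9 were higher in b-gal+ than in b-gal- cells and 1 was lower, with a median of 1.29. Apoc1, an apolipoprotein, averaged 389 ± 4.64 CPM in b-gal+ libraries and 21.0 ± 0.71 CPM in b-gal- libraries (18.1-fold, adjusted p = 0.00246; SD, n = 2 each). Cd5l, a secreted protein of Kupffer cells, was 14.3-fold higher, Pltp, a phospholipid transfer protein, 8.11-fold and Lpl, lipoprotein lipase, 7.80-fold (adjusted p from 0.008 to 0.0452). Abca1, the cholesterol exporter, was called as well (2.06, adjusted p = 0.0119), and Mylip, the ligase that degrades the LDL receptor, was the lower one (-1.05, adjusted p = 0.0311). With macrophage marker scaling 2 of the 16 LXR targets tested were higher and 5 lower, against 48 and 10746 of 13181 genes.

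Of 13 genes of iron recycling linked to Spic, 11 were higher and the median was 2.13. Cd163, the haemoglobin scavenger receptor, averaged 1555 ± 449 CPM in b-gal+ libraries and 84.8 ± 24.6 CPM in b-gal- libraries (18.2-fold, adjusted p = 0.00542). Hmox1, which degrades haem, was 11.04-fold higher, Vcam1, a Spic-dependent adhesion molecule of splenic macrophages, 8.01-fold and Slc11a1, a phagosomal metal transporter, 7.42-fold. With macrophage marker scaling 1 of the 13 was higher and 2 were lower, against 48 and 10746 of 13181 genes. Nfe2l2 and Bach1, the factors that induce and repress Hmox1, were the 2 that did not pass (0.31 and -0.04).

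Of 20 other macrophage transcription factors, 8 were higher, 1 was lower, and the median was 1.15. Batf3 was 5.72-fold higher, Cebpb 4.13-fold and Mitf 4.12-fold, whereas Runx3, a factor of lymphocytes, was 3.93-fold lower in b-gal+ cells. With macrophage marker scaling 8 of the 20 were lower, where 10746 of 13181 genes were, and the fit called no higher one. Of 27 parts of the Notch, TGF-β and BMP pathways and of macrophage growth factor signalling, 10 were lower, 2 were higher, and the median was -0.52. Among the lower ones, Bmp2 averaged 143 ± 16.9 CPM in b-gal+ libraries and 1401 ± 416 CPM in b-gal- libraries (9.57-fold), Dll4 was 9.41-fold and Bmp6 9.17-fold lower, and so was the co-receptor Eng (9.08-fold). The 2 higher genes were receptors, Csf1r (2.84, adjusted p = 0.0111) and Tgfbr1 (1.79, adjusted p = 0.00725). Of the endothelial markers, which moved with these ligands, 14 of 15 were lower, with a median of -3.15. Their part in the ligand differences was not tested.

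**Figure D5:**
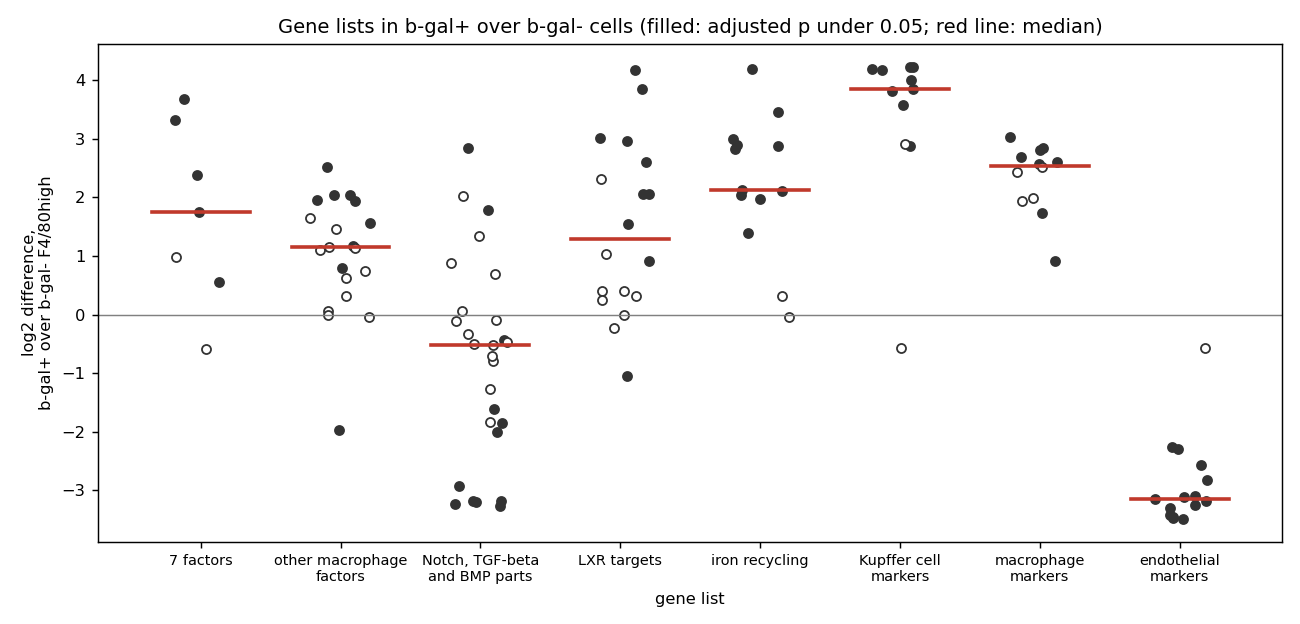
Log2 difference of b-gal+ over b-gal- F4/80high cells for each tested gene of 8 lists, filled where adjusted p was under 0.05, with a red line at the list's median. The medians run from -3.15 for endothelial markers to 3.84 for Kupffer cell markers, with the 7 factors at 1.76.

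Kupffer cell markers were called higher in b-gal+ over b-gal- cells for 9 of 11, among them the lectin Clec4f (18.8-fold) and the complement receptor Vsig4 (18.1-fold). Macrophage markers were called higher for 8 of 12, and all genes for 10.3%. With macrophage marker scaling 7 of the 11 Kupffer cell markers were higher and 1 was lower, against 48 and 10746 of 13181 genes. Their median on that scale was 1.51. Endothelial genes called lower included the phosphatase Ptprb (11.2-fold) and the VEGF receptor Kdr (10.99-fold). Some genes stand in more than 1 list: Cd163 and Slc40a1 are Kupffer cell and iron genes, Cd5l a Kupffer cell and LXR gene, Mertk a macrophage and LXR gene, Eng an endothelial and BMP gene, Cdh5 a Kupffer cell and endothelial gene, Csf1r a macrophage and growth factor signalling gene, and Nfe2l2 and Bach1 iron genes and other macrophage factors. Of 30 markers of cholangiocytes, hepatocytes and stellate cells limma called 0, 3 had an unadjusted p under 0.05, edgeR called 0, and DESeq2 called 1 higher and 1 lower. Over all genes 13% were called lower. Monocyte and neutrophil markers had 1 lower call of 9 (Ly6c2) and B, T and NK cell markers 1 of 9 (Cd79a), near that share. Dendritic cell markers had 3 of 8, among them Zbtb46 and Flt3. The summed level of the monocyte list was 506 and 246 CPM in b-gal+ libraries and 1052 and 201 CPM in b-gal- libraries, which overlapped. Among 6 erythroid markers, 4 or 5 were at 0 reads in every library.

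The other comparisons share libraries with the one above, so their values are given side by side and not as separate evidence. In b-gal+ over EpCAM-positive cells all 7 factors were higher, where 14.7% of genes were called higher and 17.9% lower. Spic (6.11) and Nr1h3 (5.47) differed most, followed by Rxra (2.89), Zeb2 (2.46), Spi1 (2.44), Id3 (1.42) and Maf (0.84), with adjusted p from 0.000552 for Rxra to 0.0287 for Spi1. Spi1 failed without b-gal+ replicate 1 or 2 (0.111 and 0.113) or EpCAM-positive replicate 2 (1.58, adjusted p = 0.106), and was 3.32 without EpCAM-positive replicate 1. Maf failed without either b-gal+ library (0.0654 and 0.068) and without TMM scaling (0.109). With all libraries of both groups kept, Spi1 missed the threshold with edgeR (adjusted p = 0.0506) and with limma on the 4 libraries alone (0.0514). Maf missed it with limma on those 4 libraries (0.113) and on the deposited scale (0.0704). Spic moved to 7.40 and 4.78, and Nr1h3 to 6.16 and 4.77, without EpCAM-positive replicate 1 or 2.

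In b-gal+ cells over hepatocytes 5 factors were higher, against 29.5% of all genes called higher and 29.6% lower: Spi1 by 6.66, Spic by 6.52, Zeb2 by 5.04, Maf by 3.45 and Id3 by 2.76 (adjusted p from 1.39e-05 to 0.00045). Nr1h3 and Rxra, the factors that hepatocytes also use, were the 2 that did not pass. In b-gal- cells over hepatocytes 5 factors were higher and 2 lower, against 33.5% and 29.7% of all genes. The higher ones were Spi1 (4.29), Zeb2 (4.06), Maf (4.05), Spic (2.84) and Id3 (2.22). The lower ones were Nr1h3 (-2.13) and Rxra (-1.86, adjusted p = 0.000136). Spic failed without b-gal- replicate 1 (adjusted p = 0.0976) or hepatocyte replicate 1 or 2 (0.0803 and 0.104). Spi1 moved to 3.69 and 4.88 without b-gal- replicate 1 or 2, and to 3.69 without hepatocyte replicate 2.

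In b-gal- over EpCAM-positive cells 5 factors were higher, against 5.63% of all genes called higher and 6.57% lower: Nr1h3 (2.14, adjusted p = 0.0288), Zeb2 (1.48, 0.0421), Maf (1.44, 0.0177), Rxra (1.13, 0.0188) and Id3 (0.87, 0.0216). Spic (2.44, 0.0969) and Spi1 (0.07, 0.969) did not pass. With limma no factor was called without b-gal- replicate 1 or 2 or hepatocyte replicate 2, although 5 or 6 had an unadjusted p under 0.05 in each. It called 3 without b-gal+ replicate 1, 2 without b-gal+ replicate 2 and 2 without hepatocyte replicate 1, while edgeR on all 8 libraries called 4 and DESeq2 5. Spi1 turned to -0.52 without b-gal- replicate 1 and to -0.79 without EpCAM-positive replicate 2, and Spic moved to 3.73 (adjusted p = 0.00557) and 1.11 without EpCAM-positive replicate 1 or 2. With the same libraries left out, Nr1h3 moved to 2.84 and 1.45, and Zeb2 to 2.04 and 0.93, losing its call without replicate 2 (adjusted p = 0.0622).

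In EpCAM-positive cells over hepatocytes 4 factors were higher, against 33.5% of all genes, and 2 were lower, against 29.1%. The higher ones were Spi1 (4.22), Maf (2.61), Zeb2 (2.58) and Id3 (1.35), and the lower ones Nr1h3 (-4.28) and Rxra (-2.99). Spic differed by 0.41 (adjusted p = 0.68), turning to -0.90 without EpCAM-positive replicate 1 and to 1.71 (adjusted p = 0.0192) without replicate 2. Macrophage markers were also higher in EpCAM-positive cells, 10 of 12, with sums of 3737 and 964 CPM there against 401 and 254 CPM in hepatocytes. So were 15 of 15 endothelial, 8 of 8 dendritic cell, 8 of 9 lymphocyte, 5 of 9 monocyte and neutrophil and 9 of 10 cholangiocyte markers, and the part of any of these in the differences was not tested. All 7 factors were higher in EpCAM-positive replicate 1 than in replicate 2, by little for Id3 and Rxra. Replicate 1 also had the larger macrophage, Kupffer cell, endothelial, monocyte, lymphocyte, dendritic cell and stellate cell marker sums. Replicate 2 had the larger cholangiocyte and hepatocyte marker sums. The part of these cell types in the replicate differences was not tested. Without EpCAM-positive replicate 1 or 2 Spi1 moved to 3.34 and 5.07, and Nr1h3 to -4.97 and -3.58, and Spi1 was at 3.63 without hepatocyte replicate 2.

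Across the 8 libraries, which share group and depth, the members fell into different patterns. On log2(CPM + 0.5), Nr1h3 and Rxra ran together (Pearson's r 0.958), as did Id3 and Zeb2 (0.981) and Zeb2 and Spi1 (0.959), while Maf and Rxra ran apart (-0.407). Among 9731 other genes that averaged 10 CPM or more, those most like Nr1h3 were Abca1 (0.992), Rnasek (0.991) and Lamp1 (0.990). Abca1 is itself a target of LXR. Spic was most like C1qc, C1qa and P2ry12 (each 0.996), which encode complement C1q chains and a purinergic receptor. Spi1 was most like Cyba, Apbb1ip and Cd53 (each 0.998), genes of leukocytes. Rxra was most like Ap5s1 (0.994), Mrps6 (0.990) and C4b (0.989). Maf was most like Tmem106a (0.998), Map3k3 (0.996) and Tgfbr2 (0.996), Zeb2 like Dip2b, Ssh2 and Adam10, and Id3 like Pias3 (0.999), Clec1b and Ptgs1 (each 0.998). These correlations describe 4 groups of 2 libraries and carry no test.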

How the data were processed

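RNA of 8 sorted libraries was sequenced, 2 in each of 4 groups. Per the submitters' processing notes, HTSeq and build GRCm38.p4 (mm10) were used, and the aligner, annotation, versions and use of strand are not given in the sources used here. For hepatocyte replicate 1 the authors deposited read counts per gene symbol. In the other 7 files the authors deposited counts multiplied by 1 factor per library (1.08 to 1.54, from the values themselves), a unit with no usual name. Dividing by the smallest step gave whole reads for 100% of values within 0.01. Rows with a date number for a symbol, 14 of 21982, held 0.0514% to 0.182% of reads and were left out.

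Recovered reads were scaled with TMM (edgeR 4.0.16; factors 0.527 to 1.49) to CPM. Genes passing edgeR's default filter were tested with limma 3.58.1, with trend, on log2(CPM + 0.5), in 1 fit of 8 libraries with 4 residual degrees of freedom (R 4.3.3), which was tested on simulated data. Tests were two-sided, Benjamini-Hochberg adjusted over 14404 genes, and called at adjusted p under 0.05. edgeR's quasi-likelihood test and DESeq2 1.42.0 on recovered reads were alternatives. Fold changes are on the log2(CPM + 0.5) scale and understate low genes. The members and lists were chosen with earlier results of these data known. 1 further paralogue is not reported here. Named genes are all members and the 13 paralogues, up to 4 called genes a list with the largest difference and a mean of at least 10 CPM, and the 3 genes most like each member. Abca1, Mylip, Nfe2l2, Bach1, Csf1r, Tgfbr1, Adgre1, Zeb2os were named outside that rule, after their values were seen. Upstream sequences were found for 5 of 7 members.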

Additional observations from a re-analysis of the deposited data

How the results depend on the processing

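The 42 member differences were recomputed under up to 20 alternatives, 784 values in all, of which 670 kept direction and side of the threshold, 74 lost the call, 26 gained it and 14 reversed. For b-gal+ over b-gal- cells the 5 called factors became 3 with no filter and 3 with edgeR, and 2 to 7 when 1 library was left out. Macrophage marker scaling called 0 factors higher and 3 lower (Id3, Zeb2 and Maf), against 48 and 10746 of 13181 genes. On that scale Id3 reversed to -1.79, Zeb2 to -1.36 and Rxra to -0.58. The calls of Nr1h3 and Rxra held in each of the other alternatives. The genes called there (3357) ranged from 1289 to 4365 when 1 library was left out. Genes called in b-gal+ over EpCAM-positive cells (4686) ranged from 1953 to 5657, and were 2750 in a fit of only the 4 libraries compared. The 5 factors called in b-gal- over EpCAM-positive cells became 3 without TMM and 0 to 6 when 1 library was left out. The genes called there (1757) ranged from 0 to 2982 and were 2855 with DESeq2. In a limma fit of only the 4 libraries compared, 0 factors and 0 genes were called, with 5 factors and 3077 genes at an unadjusted p under 0.05. There Spi1 reversed to -0.21 without TMM, -0.0593 with edgeR, -0.12 with DESeq2, -0.0295 with only the 4 libraries compared, -0.10 with the scaling of the deposited values, and ranged from -0.79 to 0.94 when 1 library was left out. Rxra in b-gal+ cells over hepatocytes reversed to 0.89 without TMM, to 0.95 with the deposited scaling and to 0.00305 without hepatocyte replicate 1, and Spic in EpCAM-positive cells over hepatocytes to -0.90 without EpCAM-positive replicate 1, in a range of -0.90 to 1.71. The causes were not tested.

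Omitting TMM moved the median of all genes by -0.13 in b-gal+ over b-gal- cells, -0.40 in b-gal+ and -0.26 in b-gal- over EpCAM-positive cells, and by 0.73, 0.90 and 1.22 in b-gal+, b-gal- and EpCAM-positive cells over hepatocytes. Calls higher and lower were then 1185 and 4426 (2112 and 2574 with TMM) and 272 and 1300 (811 and 946) over EpCAM-positive cells. Over hepatocytes they were 7336 and 2360 (4254 and 4268), 8341 and 2239 (4826 and 4276) and 9665 and 1651 (4822 and 4187). The deposited scaling, chosen after seeing the data, moved these medians by -0.13, -0.30, -0.15, 0.77, 0.96 and 1.17 in the same order. Same-numbered replicates deviated together (correlations 0.177 to 0.494), but 2 pairs and a shared number do not make the samples paired. With a replicate block, 7, 7, 6, 6, 7 and 6 factors were called in b-gal+ over b-gal-, EpCAM-positive and hepatocyte libraries, b-gal- over EpCAM-positive and hepatocyte libraries, and EpCAM-positive over hepatocyte libraries, while the genes called were 4060, 5452, 9067, 2250, 9662 and 9597 of 14404. It added Zeb2 (adjusted p = 0.0468) and Maf (0.0483) in b-gal+ over b-gal-, Nr1h3 (0.019) in b-gal+ over hepatocyte and Spic (0.0435) in b-gal- over EpCAM-positive libraries. Without both EpCAM-positive libraries, also chosen after seeing the data, 7, 6 and 7 factors were called in b-gal+ over b-gal-, b-gal+ over hepatocyte and b-gal- over hepatocyte libraries, and 4507, 9122 and 9720 of 13786 genes. Depth limits Spic in EpCAM-positive cells and hepatocytes, where it had 12 to 179 reads.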

Other observations

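Among the 18 LXR targets, 9 were higher and 7 lower in b-gal+ cells over hepatocytes, against 29.5% and 29.6% of all genes. Rxra did not pass in that comparison and Nr1h3 missed the threshold. Of the same 18 targets, 8 were higher and 8 lower in b-gal- cells over hepatocytes (33.5% and 29.7% of all genes). In EpCAM-positive cells over hepatocytes 5 were higher and 9 lower (33.5% and 29.1% of all genes). Abcg1, a cholesterol exporter of macrophages, had 307 and 344 CPM in b-gal+ libraries against 9.75 and 10.8 CPM in hepatocytes (log2 difference 4.92, adjusted p = 3.35e-05 in the limma fit). Abcg5 and Abcg8, which together export sterols into bile, had at most 0.08 CPM in b-gal+ libraries against 97.8 to 166 CPM in hepatocytes. Srebf1, the regulator of fatty acid synthesis, had 127 and 107 CPM in b-gal+ libraries against 887 and 1385 CPM in hepatocytes (-3.25, adjusted p = 0.000338). Scd1, a fatty acid desaturase, had 164 and 129 CPM in b-gal+ libraries against 5002 and 16951 CPM in hepatocytes. These targets were named after their values were seen.

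The Notch target Hes1 had 99.4 and 60.0 CPM in b-gal+ libraries, 125 and 92.9 in b-gal- libraries, 145 and 427 in EpCAM-positive libraries and 18.9 and 13.7 in hepatocytes. The ligand Jag1 had 7.51 and 4.06 CPM in b-gal+ libraries, 26.1 and 16.9 in b-gal- libraries, 26.3 and 79.8 in EpCAM-positive libraries and 4.21 and 5.75 in hepatocytes. Both were lower in b-gal+ than in EpCAM-positive cells (-1.68, adjusted p = 0.043, and -2.94, adjusted p = 0.00841). EpCAM-positive replicate 2 had the higher level of each. It also had the larger cholangiocyte marker sum (6695 against 2086 CPM in replicate 1) and hepatocyte marker sum (5030 against 720 CPM). The part of either cell type in the levels of Hes1 and Jag1 was not tested. These genes, too, were chosen after their values were seen.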
